A study of Mus musculus with 20 samples.

Results

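The genes of the cell division cycle were followed in 20 mouse tumours as 40 members chosen by symbol, of 55406 genes in the deposited count table. All 40 had 1 row in the count table and 1 in the table of RPKM, and all 40 passed the filter on low counts, the lowest count of a member in a library being 117. For description they were read in 3 classes, namely 23 mitotic genes, 9 S-phase genes (Mcm2 to Mcm7, Pcna, Rrm1 and Rrm2) and 8 other genes of the step into S phase. Every tumour, those of controls included, grew in the peritoneum of a female C57/BL6 mouse injected with a luciferase-expressing derivative of ID8, a cancer line from mouse ovarian surface epithelium. Per the labels the cells were Trp53-/-Brca1-/-, and so lacked a tumour suppressor and a gene of homologous recombination. The groups were PARPi+ICB+anti-VEGFA (n = 4), PARPi+ICB (n = 3), PARPi+anti-VEGFA (n = 4), PARPi (n = 3), ICB (n = 3) and untreated controls (n = 3). PARPi was olaparib, an inhibitor of the DNA repair enzyme PARP, at 40 mg/kg a day by mouth. ICB, immune checkpoint blockade, was 100 µg of antibody to CTLA-4 with 200 µg of antibody to PD-L1, and anti-VEGFA was 20 µg of antibody to the angiogenic factor VEGFA. The sources used here do not say how long treatment lasted, whether controls received vehicle or isotype antibody, or whether the injected cells were 1 clone.

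A cell that commits to divide first turns on genes through the E2F factors: the MCM helicase that opens DNA, the clamp PCNA that holds the polymerase, and the enzymes that make deoxynucleotides. Genes for the spindle, the kinetochore and the breakdown of cyclins follow later, through B-MYB and FOXM1, which act at promoters that often carry a CHR element or CCAAT boxes. Their transcripts are therefore common in dividing tissue and scarce in resting tissue. In bulk tumour RNA, fewer dividing cells and less RNA per dividing cell cannot be told apart, nor can dividing cancer cells be told from dividing immune cells.

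Promoter letters differed between the classes, and the sequences printed here belong to genes whose values are given in the results below. RefSeq windows of 250 bases before to 50 after the start (GRCm38.p6) were at hand for 33 of 40 members, in 34 windows. The CHR letters TTTGAA, searched on both strands, stood in 14 of 19 mitotic windows (73.7%) and 1 of 9 S-phase windows (11.1%), against 17.9% of all 32851 windows. The letters CCAAT stood in 84.2% of mitotic and 100% of S-phase windows, against 37.4% of all. The E2F letters TTTGGCGC, TTTCCCGC, TTTGCCGC or TTTCGCGC stood in 5.26% of mitotic and 44.4% of S-phase windows, against 2.26% of all. Matches to different motifs overlapped in 1 of the 34 member windows, and matches to the same motif in 3. Capitals in the sequences mark matches to any of these motifs. Mitotic genes come first:
Plk1 (chr7:122159185-122159484, plus strand): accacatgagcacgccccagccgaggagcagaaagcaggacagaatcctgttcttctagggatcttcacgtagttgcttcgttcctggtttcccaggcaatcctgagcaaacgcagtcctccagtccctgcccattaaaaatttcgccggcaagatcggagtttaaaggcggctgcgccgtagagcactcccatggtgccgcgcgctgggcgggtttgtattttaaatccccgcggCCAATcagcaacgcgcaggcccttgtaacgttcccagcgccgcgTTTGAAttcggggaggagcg
Ccnb2 (chr9:70421505-70421804, minus strand): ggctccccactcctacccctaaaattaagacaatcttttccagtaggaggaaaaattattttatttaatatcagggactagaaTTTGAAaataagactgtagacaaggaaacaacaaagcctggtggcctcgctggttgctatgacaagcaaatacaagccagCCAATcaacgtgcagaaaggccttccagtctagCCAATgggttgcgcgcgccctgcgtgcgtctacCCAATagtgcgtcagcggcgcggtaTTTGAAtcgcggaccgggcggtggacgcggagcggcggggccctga
Ube2c (chr2:164769679-164769978, plus strand): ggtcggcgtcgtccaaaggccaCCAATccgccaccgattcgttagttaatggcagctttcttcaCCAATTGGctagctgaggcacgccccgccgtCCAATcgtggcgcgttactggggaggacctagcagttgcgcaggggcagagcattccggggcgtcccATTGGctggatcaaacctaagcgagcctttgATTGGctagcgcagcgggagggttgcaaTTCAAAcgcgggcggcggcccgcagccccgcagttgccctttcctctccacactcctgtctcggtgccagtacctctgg
S-phase genes follow:
Mcm5 (chr8:75109259-75109558, plus strand): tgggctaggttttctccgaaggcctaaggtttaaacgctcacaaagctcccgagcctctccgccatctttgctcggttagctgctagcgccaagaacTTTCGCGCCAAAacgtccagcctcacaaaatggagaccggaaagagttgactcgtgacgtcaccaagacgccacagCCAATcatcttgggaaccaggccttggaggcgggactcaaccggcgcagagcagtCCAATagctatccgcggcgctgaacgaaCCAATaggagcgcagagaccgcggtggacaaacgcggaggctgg
Mcm6 (chr1:128359656-128359955, minus strand): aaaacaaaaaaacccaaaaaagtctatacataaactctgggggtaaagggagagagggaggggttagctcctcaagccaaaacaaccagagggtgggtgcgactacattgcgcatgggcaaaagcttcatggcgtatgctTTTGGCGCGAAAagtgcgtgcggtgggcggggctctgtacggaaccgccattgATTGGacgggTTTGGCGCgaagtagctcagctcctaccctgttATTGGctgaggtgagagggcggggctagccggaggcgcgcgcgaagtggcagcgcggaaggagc
Rrm2 (chr12:24708004-24708303, plus strand): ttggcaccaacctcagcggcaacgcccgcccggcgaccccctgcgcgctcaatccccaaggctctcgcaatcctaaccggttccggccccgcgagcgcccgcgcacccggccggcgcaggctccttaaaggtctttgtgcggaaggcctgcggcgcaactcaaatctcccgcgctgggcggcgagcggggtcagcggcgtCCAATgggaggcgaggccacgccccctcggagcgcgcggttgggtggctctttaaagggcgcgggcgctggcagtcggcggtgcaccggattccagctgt
Plk1 and Ube2c each held 1 CHR match and Ccnb2 held 2, the Plk1 match 30 bases after the start. Mcm5 held 2 and Mcm6 held 3 E2F matches and neither held a CHR match. In each of these windows 2 E2F matches overlapped in 1 run of capitals. Rrm2 held 1 CCAAT box and none of the other letters searched. A match is a run of letters and not a shown binding site.

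Library totals ran from 26.9 to 34.7 M counts, and TMM factors from 0.958 to 1.03. Defining epithelial and mesothelial markers were present in every library, with Wt1 at 795 to 1070 CPM (counts per M counts of the scaled library), Krt8 at 267 to 381 and Msln at 203 to 405, while Epcam stayed at 1.65 to 6.5. Genes of pancreatic acinar cells stood apart in 4 libraries. They were ICB replicate 3, PARPi+anti-VEGFA replicates 1 and 4 and PARPi+ICB+anti-VEGFA replicate 2. Counts without those 4 are given for several comparisons. The count of called members for PARPi+anti-VEGFA against controls is not among them. Nothing in the labels pairs the animals. The p-values set each difference against the spread between tumours within groups, estimated for each gene over all 20 libraries. That spread differed between groups: the SD of the mitotic mean log2 CPM was 0.040 with PARPi+anti-VEGFA and 0.32 with ICB. Adjusted p throughout is that of edgeR's quasi-likelihood test with Benjamini-Hochberg adjustment over 18144 genes.

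Within the module, levels per coding length spanned a wide range. In controls, Pcna had the highest mean at 36.5 RPKM (reads scaled by coding length and library size), followed by Mcm7 at 16.7, Rrm1 at 14.00 and Mki67 at 13.2. Ccne1, encoding the cyclin that drives entry into S phase, was lowest at 0.449 RPKM, and Cdc45, which helps start the replicative helicase, stood at 0.588 RPKM. The subunits of ribonucleotide reductase differed in level. Rrm1, the large subunit, averaged 14.00 RPKM and Rrm2, the small subunit that is degraded when cells leave mitosis, 6.49 RPKM in controls. Across animals of 1 group the members varied more than most genes, with a median within-group SD of 0.193 log2 against 0.119 for 11284 genes in the same range of level.

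The order of the groups was alike over most of the module. PARPi+anti-VEGFA had the highest group mean for 31 of 40 members and ICB the lowest for 37 of 40. Among mitotic genes this was 22 and 23 of 23, and among S-phase genes 4 and 7 of 9. The share of all genes with these groups highest and lowest is not given here. PARPi alone had the highest mean for another 4 of the S-phase genes. Set against the mean of controls, the mean log2 CPM of the S-phase genes was 0.11 ± 0.035 with PARPi+anti-VEGFA and 0.13 ± 0.075 with PARPi. The mean log2 CPM of the mitotic genes, set against the mean of controls, was 0.03 ± 0.24 with PARPi+ICB+anti-VEGFA, 0.06 ± 0.20 with PARPi+ICB, 0.39 ± 0.040 with PARPi+anti-VEGFA, 0.29 ± 0.046 with PARPi and -0.38 ± 0.32 with ICB (SD over animals). Controls had an SD of 0.082. PARPi+ICB+anti-VEGFA and PARPi+ICB straddled the controls, while all PARPi+anti-VEGFA and PARPi libraries lay above every control. ICB libraries lay at -0.69 to -0.04, and the highest of them overlapped the controls.

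**Figure D1:**
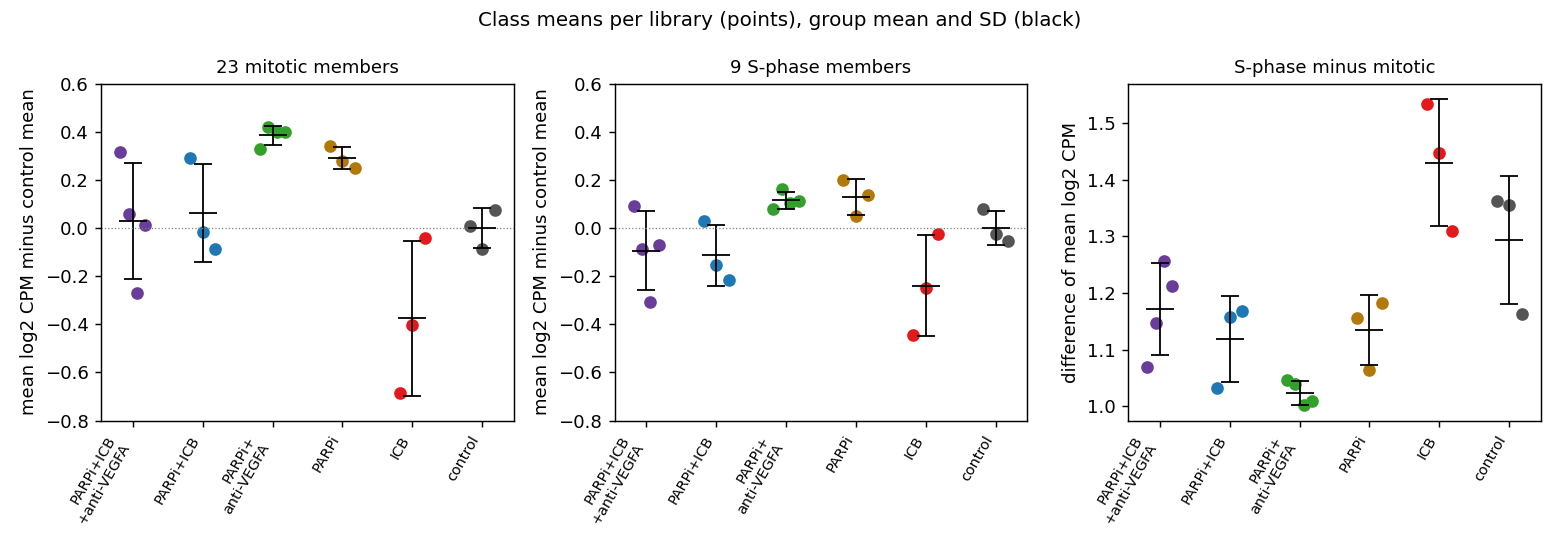
Mean log2 CPM of 23 mitotic members (left) and 9 S-phase members (middle) relative to the control mean, and S-phase minus mitotic mean (right), with 1 point per library and group mean with SD in black. PARPi+anti-VEGFA libraries sit at 0.33 to 0.42 on the mitotic scale and ICB libraries at -0.69 to -0.04, around a control mean of 0.

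With PARPi+anti-VEGFA, 9 of 40 members rose and 0 fell, beside 9.99% of all genes tested called higher and 7.8% called lower. Of these 9, 7 were mitotic (of 23), 1 was S-phase (of 9) and 1 was of the other class (of 8), and the median log2 changes were 0.39, 0.10 and 0.17, against -0.02 over all genes. In 27 of 40 members the 4 treated libraries lay above all 3 controls, which held for 14.2% of all genes. Plk1, the kinase that drives centrosome maturation and mitotic entry (chr7:122159439-122169873, GRCm38), had 36.7, 43.7, 36.6 and 38.4 CPM with PARPi+anti-VEGFA, against 26.1, 23.04 and 25.8 CPM in controls. All treated libraries were above all controls, and the log2 change was 0.64 ± 0.13 (SE, adjusted p 0.00287). Ube2c, the ubiquitin-conjugating enzyme of the anaphase-promoting complex, had 36.3, 39.7, 40.2 and 34.2 CPM with PARPi+anti-VEGFA, against 24.8, 21.7 and 25.99 CPM in controls, again without overlap (0.64 ± 0.16, adjusted p 0.0117). Ccnb2, a cyclin partner of Cdk1, had 27.96, 27.03, 28.1 and 27.2 CPM with PARPi+anti-VEGFA, against 20.4, 17.8 and 20.97 CPM in controls (0.48 ± 0.12, adjusted p 0.0119). The 4 treated libraries were close to each other and above the controls.

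The other 4 mitotic genes called were Kif20a, the kinesin of the midzone in cytokinesis (0.48 ± 0.13, adjusted p 0.0195), Ccnb1, the main mitotic cyclin (0.48 ± 0.14, adjusted p 0.0248), Birc5, the survivin subunit of the chromosomal passenger complex (0.48 ± 0.15, adjusted p 0.0328), and Tpx2, which activates Aurka at the spindle (0.43 ± 0.13, adjusted p 0.0349). Mki67, the proliferation antigen, did not pass: it had 369, 354, 389 and 424 CPM with PARPi+anti-VEGFA, against 314, 364 and 366 CPM in controls, with overlap (0.14 ± 0.17, adjusted p 0.595). Aurkb, the kinase of the passenger complex, just missed the threshold (0.42 ± 0.14, adjusted p 0.0510). Of the S-phase genes, Rrm2 had 49.6, 53.6, 52.2 and 54.5 CPM with PARPi+anti-VEGFA, against 41.8, 35.9 and 35.9 CPM in controls (0.47 ± 0.12, adjusted p 0.0117), and all treated libraries were higher. Rrm1, the other subunit, had 356, 359, 358 and 331 CPM with PARPi+anti-VEGFA, against 402, 387 and 376 CPM in controls, all treated libraries being lower, and did not pass the test (-0.15 ± 0.054, adjusted p 0.0683). Cdt1, which loads the MCM helicase, rose (0.42 ± 0.12, adjusted p 0.0182). The 6 Mcm genes and Pcna were not called, with log2 changes from -0.03 (Mcm7) to 0.21 (Mcm4).

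These calls changed with the method, the libraries left out and a covariate. DESeq2 called 16 members, and a fit of both groups alone called 22. The count was 1 without control replicate 2 and 5 without PARPi+anti-VEGFA replicate 2. Rn7sk, Lars2 and Mir6236, transcripts whose counts varied strongly between these libraries and whose mean was used as a technical score, averaged 2.72 to 2.81 log2 CPM with PARPi+anti-VEGFA, against 4.47 to 4.82 in controls, and with that score as a covariate 0 of 40 members, and 0 of all 18144 genes, were called, against 3228 genes without it. The median of mitotic genes was then 0.08 and that of S-phase genes -0.15, below 0, where it was 0.10 without the covariate. Scores of these groups did not overlap. The fit took the slope of the score from differences within groups, so the adjusted change between these groups is an extrapolation. The same lack of overlap held for PARPi, ICB and PARPi+ICB against controls. Whether the score is technical was not tested. T cell genes, summed, were at 110.5 to 173 CPM with PARPi+anti-VEGFA, against 57.7 to 75.6 CPM in controls, and 10 of 10 of them rose. Summed epithelial markers were at 2025 to 2332 CPM with PARPi+anti-VEGFA, against 2674 to 3026 CPM in controls. Of 10 such markers 2 rose and 6 fell. Of B and plasma cell genes 6 of 8 rose, with a summed level of 1851 to 3229 CPM with PARPi+anti-VEGFA, against 766 to 1113 CPM in controls. Of macrophage genes 7 of 8 rose, at 1565 to 1803 CPM with PARPi+anti-VEGFA, against 1090 to 1224 CPM in controls. Of fibroblast genes 4 of 7 rose, at 3501 to 5064 CPM with PARPi+anti-VEGFA, against 2774 to 3068 CPM in controls, and 3 of 4 adipocyte genes tested also rose. Endothelial genes gave 0 calls of 6 in edgeR, and 0 at an unadjusted p under 0.05. No epithelial, T cell, B cell, macrophage, fibroblast or endothelial marker was at 0 in any library. The part of these cell types in the result was not tested.

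**Figure D2:**
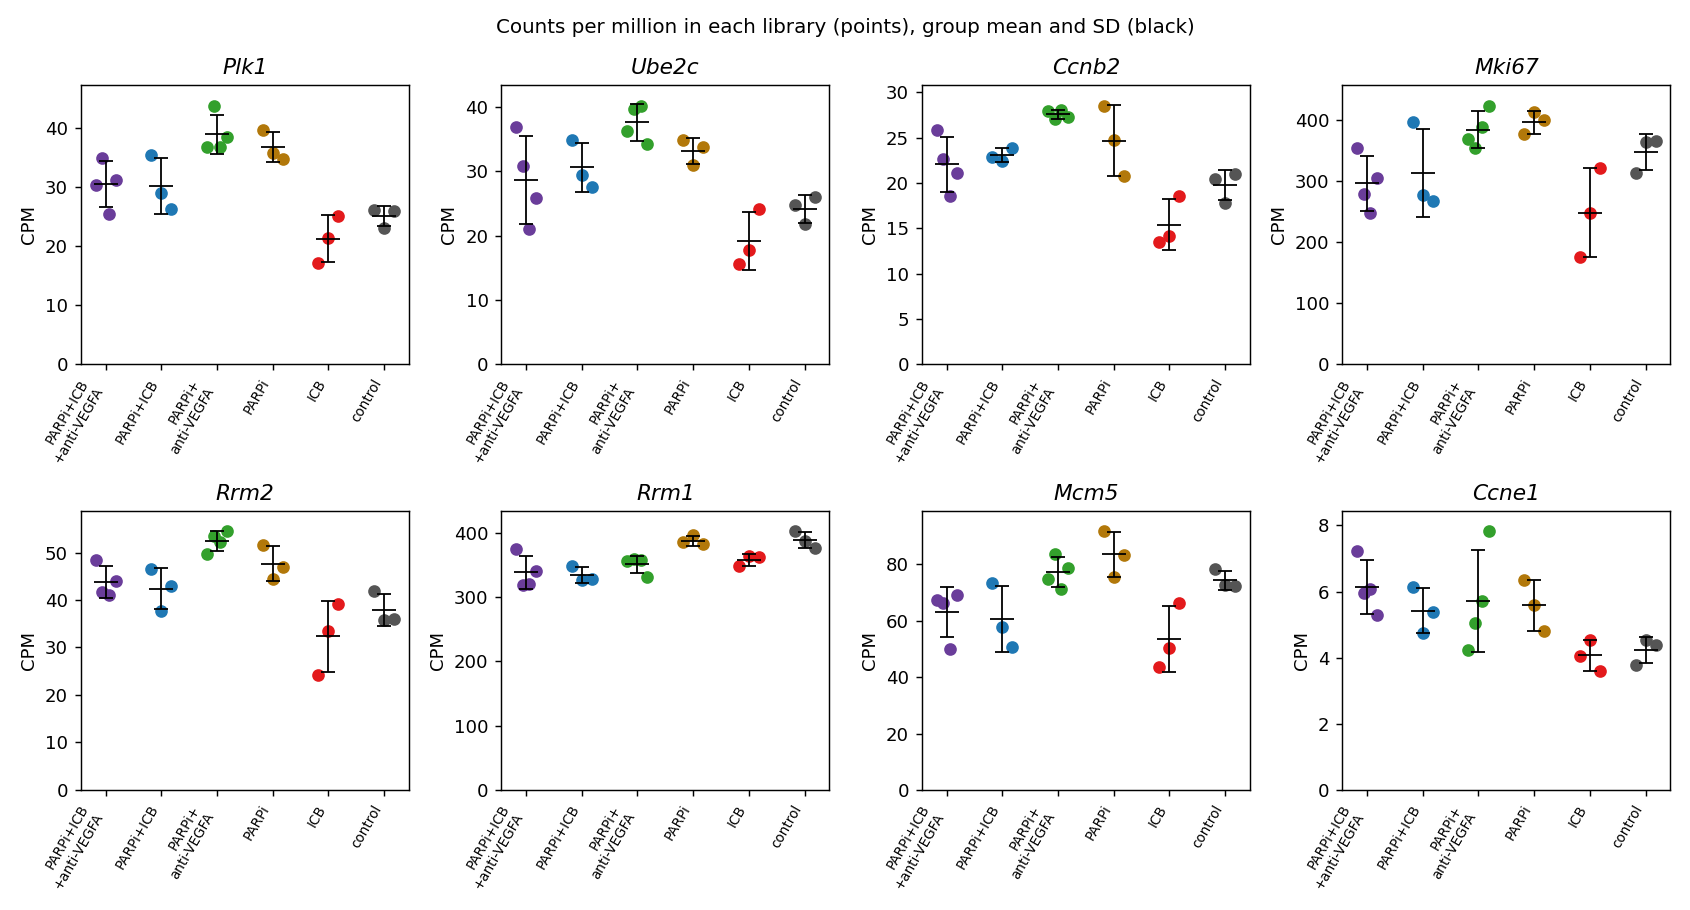
CPM of 8 members in each library, with group mean and SD in black, treatments left of control. Plk1, Ube2c and Rrm2 lie higher with PARPi+anti-VEGFA than in controls, and Rrm1 lies lower with PARPi+ICB than in controls.

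PARPi alone gave 0 called members in edgeR, beside 0.0551% of all genes called higher, with 9 members at an unadjusted p under 0.05, all higher, against 6.92% of all genes. The DESeq2 Wald test called 1 and limma 0. The estimates were positive for 39 of 40 members, with medians of 0.29 for mitotic and 0.09 for S-phase genes, against -0.01 over all genes. The share of all genes with a positive estimate is not given here. In 26 of 40 members all PARPi libraries lay above all controls, against 11.2% of all genes. Plk1 had 39.5, 35.8 and 34.7 CPM with PARPi, against 26.1, 23.04 and 25.8 CPM in controls, with no overlap (0.55 ± 0.14, adjusted p 0.110). Mki67 had 377, 413 and 400.4 CPM with PARPi, against 314, 364 and 366 CPM in controls, also without overlap but with a small difference (0.19 ± 0.18, adjusted p 0.731). With the technical score as a covariate, the mitotic median was 0.10 and the S-phase median 0.0031. The score was 2.99 to 4.31 log2 CPM with PARPi, against 4.47 to 4.82 in controls. In the same comparison the summed B and plasma cell genes were at 1688 to 2840 CPM with PARPi, against 766 to 1113 CPM in controls, with 1 of 8 called higher. T cell genes were at 90.3 to 112 CPM with PARPi, against 57.7 to 75.6 CPM in controls, and epithelial markers at 2401 to 2438 CPM with PARPi, against 2674 to 3026 CPM in controls, with 0 of 10 called in either list and 7 T cell genes higher, 2 epithelial markers higher and 5 lower at an unadjusted p under 0.05. None of these ranges overlapped, and the part of these cell types in the result was not tested.

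ICB alone gave 0 called members in edgeR, beside 0.976% of all genes called lower, with 21 members at an unadjusted p under 0.05, all lower, against 8.22% of all genes. DESeq2 called 4, all lower, and limma 0. The estimate was negative for 39 of 40 members, with medians of -0.36 for mitotic, -0.23 for S-phase and -0.22 for other genes. The median over all genes was -5.3e-06, and the share of all genes with a negative estimate is not given here. All 3 ICB libraries lay below all controls for 14 members, against 10.4% of all genes. Mki67 had 175, 247 and 322 CPM with ICB, against 314, 364 and 366 CPM in controls (-0.49 ± 0.18, adjusted p 0.156). Replicate 1 was far lower than replicate 3, which overlapped the controls. Mcm5, a subunit of the MCM helicase, had 43.8, 50.5 and 66.4 CPM with ICB, against 78.4, 72.5 and 72.3 CPM in controls, with no overlap (-0.47 ± 0.15, adjusted p 0.0998). Kif11, the kinesin that separates the spindle poles, had 51.9, 66.3 and 73.2 CPM with ICB, against 83.9, 85.9 and 91.00 CPM in controls (-0.45 ± 0.13, adjusted p 0.0891). ICB replicate 1 was the lowest of 20 libraries for 32 of 40 members. Without ICB replicate 3, which is also 1 of the 4 libraries with acinar RNA, 6 members were called lower, and without all 4 such libraries 4 were. The technical score was 2.74 to 3.08 log2 CPM with ICB, against 4.47 to 4.82 in controls, and with it as a covariate the mitotic median was -0.62, the S-phase median -0.43 and 0 members were called. T cell genes, summed, were at 94.1 to 119.7 CPM with ICB, against 57.7 to 75.6 CPM in controls, with 3 of 10 called higher. B and plasma cell genes were at 1960 to 2627 CPM with ICB, against 766 to 1113 CPM in controls, with 3 of 8 called higher. For ICB alone the share of all genes called higher is not given here. Erythroid genes were at 6.08 to 10.7 CPM with ICB, against 40.9 to 128 CPM in controls, with 0 of 6 called and 6 lower at an unadjusted p under 0.05. The part of these cell types in the result was not tested.

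Both combinations with ICB gave few calls against controls. With PARPi+ICB, 0 members were called higher and 1 lower, beside 9.58% of all genes called higher and 6.52% lower, and with PARPi+ICB+anti-VEGFA 1 was called higher and 1 lower, beside 12.6 and 11.5%. Rrm1 fell in both. It had 374, 318, 321 and 341 CPM with PARPi+ICB+anti-VEGFA and 348, 326 and 328 with PARPi+ICB, against 402, 387 and 376 CPM in controls. Both treated groups were below all controls, with log2 changes of -0.20 ± 0.054, adjusted p 0.0134 and -0.22 ± 0.058, adjusted p 0.0163. The comparisons share the 3 control libraries. Ccne1 rose with PARPi+ICB+anti-VEGFA, with 7.24, 5.96, 6.08 and 5.28 CPM against 3.78, 4.53 and 4.398 CPM in controls (0.54 ± 0.18, adjusted p 0.0368). The Rrm1 call with PARPi+ICB was lost without control replicate 1 or without PARPi+ICB replicate 2 or 3, and 0 members were called with PARPi+ICB+anti-VEGFA without control replicate 1. All 10 T cell genes and all 8 B and plasma cell genes rose in both combinations, and the part of these cell types was not tested. Mitotic medians were 0.04 and 0.06 with PARPi+ICB+anti-VEGFA and PARPi+ICB, and S-phase medians were -0.12 and -0.11.

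**Figure D3:**
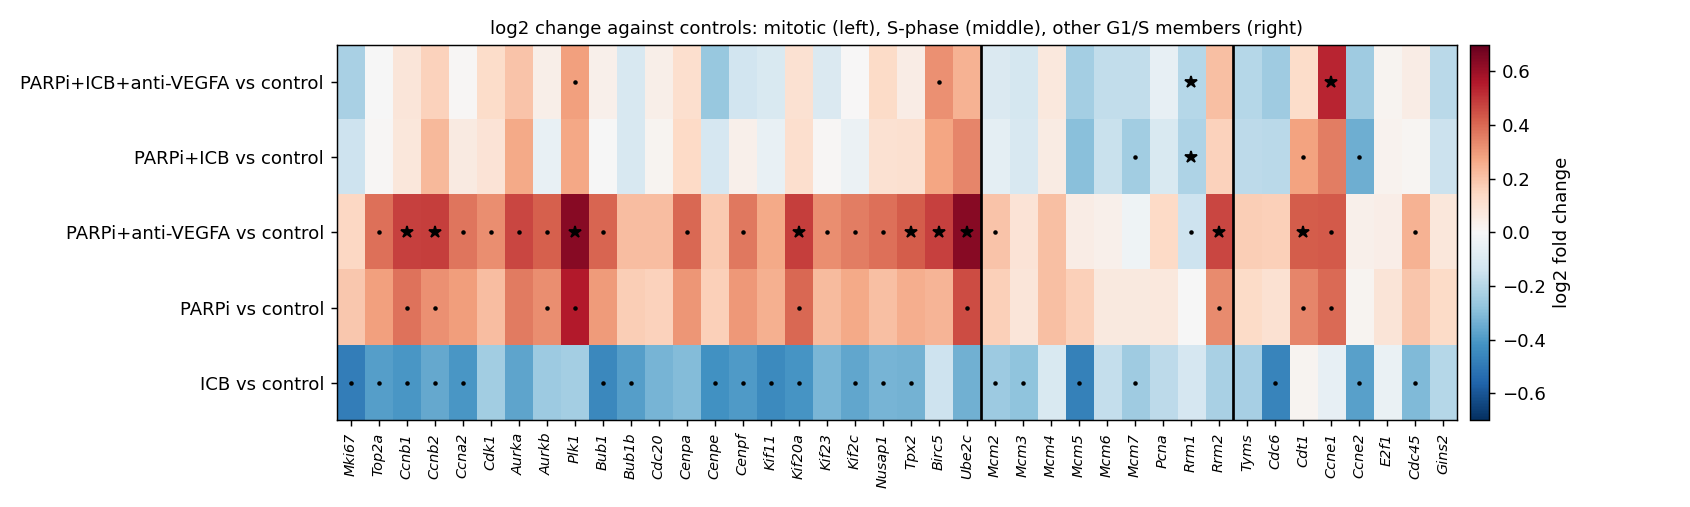
Log2 change of each of 40 members in 5 treatments against the same controls, from edgeR, with red for higher and blue for lower in the treatment. Stars mark members called at an adjusted p under 0.05 and dots those at an unadjusted p under 0.05. The row of PARPi+anti-VEGFA holds 9 stars, all higher.

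The effect of each agent was then followed where it was added to another. PARPi added to ICB gave 1 called member, Ccnb2, beside 0.529% of all genes called higher, with 23 higher at an unadjusted p under 0.05, against 8.89% of all genes. Ccnb2 had 22.9, 22.4 and 23.9 CPM with PARPi+ICB, against 13.5, 14.1 and 18.6 CPM with ICB, with no overlap (0.58 ± 0.13, adjusted p 0.0458). Without ICB replicate 3 the count was 14, without the 4 libraries with acinar RNA 10, and without ICB replicate 1 or 2 or PARPi+ICB replicate 1 or 3 it was 0. ICB added to PARPi gave 0, with 10 members lower at an unadjusted p under 0.05 (DESeq2 3, limma 0), beside 0.38% of all genes called lower and 7.3% lower by unadjusted p. ICB added to PARPi+anti-VEGFA gave 0, with 27 members lower at an unadjusted p under 0.05 (DESeq2 2, limma 0), beside 0.011% of all genes called lower and 6.29% lower by unadjusted p. In 17 of 40 members the PARPi+ICB+anti-VEGFA libraries were all below those of PARPi+anti-VEGFA, against 2.81% of all genes.

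No member was called when anti-VEGFA was added. Its addition to PARPi gave 0 called members in edgeR, DESeq2 and limma, with 1, Rrm1, lower at an unadjusted p under 0.05 against 7.53% of all genes, and the median of mitotic genes was 0.09. Added to PARPi+ICB it gave 0 in all 3 tools and 0 at an unadjusted p under 0.05 against 4.11% of all genes, with a median of -0.01. For Plk1 the log2 changes were 0.08 ± 0.13 and 0.01 ± 0.13. The background was 0.298% of genes called higher in the first and 0% in the second. The interaction of PARPi with ICB, and that of anti-VEGFA with ICB under PARPi, gave 0 called members in edgeR, DESeq2 and limma, beside 0% of all genes in both. At an unadjusted p under 0.05 there were 0 and 1 members, against 5.21% and 6.55% of all genes. The anti-VEGFA effect averaged over both ICB states, added after the data were seen, gave 0 in the 3 tools, with 0 at an unadjusted p under 0.05, beside 0.0165% of all genes called higher.

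Because ICB was given in 3 backgrounds that share no library, its effect was also averaged over them, a comparison added after the data were seen. Then 30 of 40 members fell and 0 rose, beside 6.88% of all genes called lower, with a median log2 change of -0.27. Of 23 mitotic genes 17 fell, of 9 S-phase genes 8 and of 8 others 5, and 37 of 40 members were negative in each of the 3 backgrounds, which held for 23.5% of all genes. Mki67 changed by -0.40 ± 0.10 (adjusted p 0.0123), Kif11 by -0.37 ± 0.074, adjusted p 0.00413, and Top2a, the topoisomerase that untangles sister chromatids, by -0.35 ± 0.088, adjusted p 0.0142. Of the S-phase genes, Mcm5 changed by -0.41 ± 0.082, adjusted p 0.00430, Mcm2, another helicase subunit, by -0.26 ± 0.053, adjusted p 0.00439 and Mcm6, also of the helicase, by -0.20 ± 0.050, adjusted p 0.0138. Mcm4 was the S-phase gene not called (-0.13 ± 0.067, adjusted p 0.209). Tyms, thymidylate synthase, changed by -0.31 ± 0.063, adjusted p 0.00475. Cdc6, which loads the helicase with Cdt1, changed by -0.39 ± 0.084, adjusted p 0.00623. Bub1 and Bub1b, kinases of the spindle checkpoint, changed by -0.38 ± 0.091 and -0.33 ± 0.068, and Cenpe and Cenpf, proteins of the outer kinetochore, by -0.39 ± 0.11 and -0.39 ± 0.10. Ccne2, a partner of Cdk2, changed by -0.34 ± 0.085, adjusted p 0.0137, but E2f1 itself by -0.05 ± 0.055, adjusted p 0.617. The 6 mitotic genes not called were Cdk1, Aurka, Cdc20, Nusap1, Ube2c and Birc5, with log2 changes from -0.28 to -0.09. Birc5, Ccne1 and Cdt1 were the 3 members not negative in every background. The count was 31 with the technical score as a covariate, 33 without the 4 libraries with acinar RNA and 20 to 34 with 1 library left out.

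**Figure D4:**
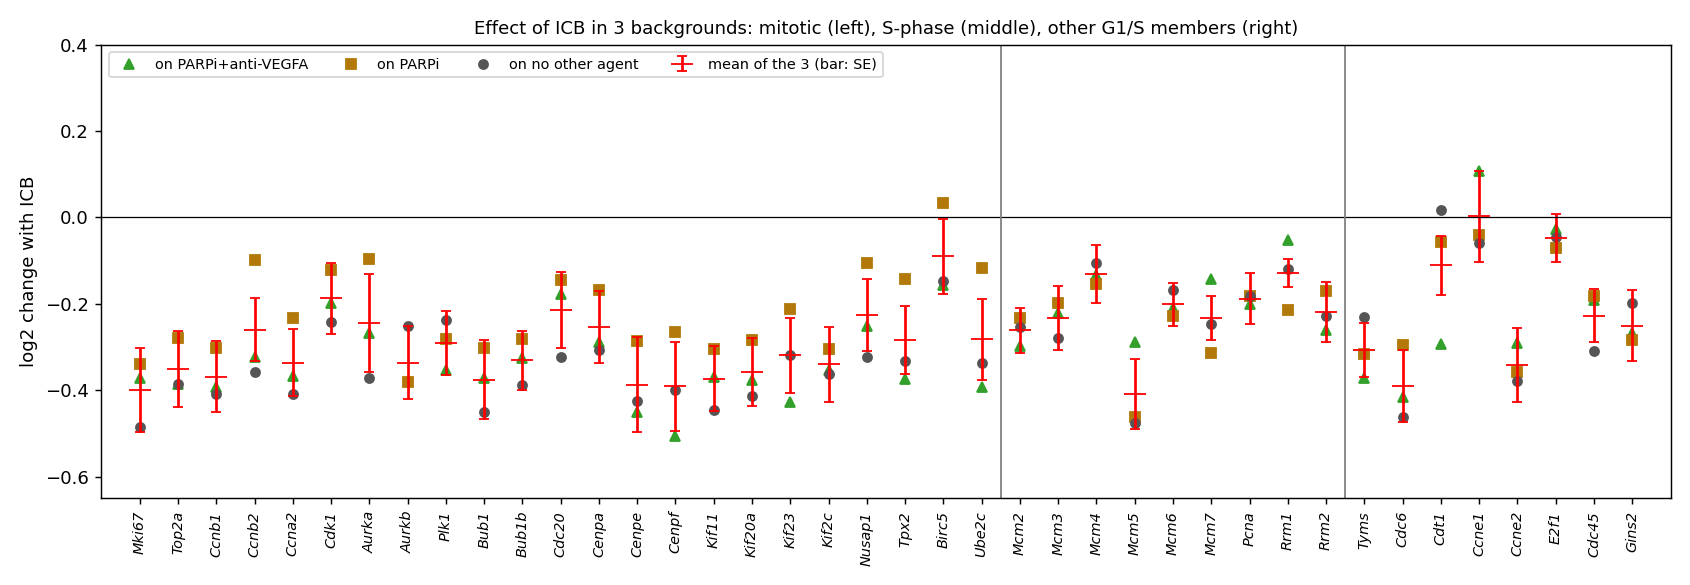
Log2 change of each member when ICB was added to PARPi+anti-VEGFA, to PARPi or to no other agent, and the mean of the 3 with its SE in red. The points of 37 of 40 members lie below 0 in all 3 backgrounds.

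The values behind the average lay as follows. Kif11 had 99.8, 75.9, 66.2 and 81.4 CPM with PARPi+ICB+anti-VEGFA, against 101, 97.9, 107 and 112 CPM with PARPi+anti-VEGFA, and the groups overlapped. It had 96.2, 84.3 and 70.98 CPM with PARPi+ICB, against 103, 98.2 and 109 CPM with PARPi, with every PARPi+ICB library lower. Mcm2 had 89.02, 86.1, 72.6 and 87.9 CPM with PARPi+ICB+anti-VEGFA, against 102, 108, 102 and 99.9 CPM with PARPi+anti-VEGFA, with every PARPi+ICB+anti-VEGFA library lower. The PARPi+ICB libraries, at 95.96, 84.6 and 76.5 CPM, overlapped those of PARPi, at 105, 94.4 and 103 CPM. Mcm5 had 67.5, 66.3, 49.9 and 69.1 CPM with PARPi+ICB+anti-VEGFA, against 74.9, 83.7, 71.3 and 78.8 CPM with PARPi+anti-VEGFA, and 73.5, 57.8 and 50.7 CPM with PARPi+ICB, against 91.7, 75.6 and 83.3 CPM with PARPi. In both pairs every library with ICB was lower. Tyms had 33.2, 31.5, 23.9 and 30.5 CPM with PARPi+ICB+anti-VEGFA, against 39.9, 38.6, 38.6 and 37.2 CPM with PARPi+anti-VEGFA, again with every ICB library lower.

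PARPi averaged over animals with and without ICB, also added after the data were seen, gave 8 called higher and 0 lower, beside 3.49% of all genes called higher. All libraries of this average also enter the averaged ICB effect, so both averages rest partly on the same animals. The 8 were Plk1 (0.53 ± 0.10, adjusted p 0.00713), Ccnb2 (0.45 ± 0.092), Ube2c (0.57 ± 0.12), Kif20a (0.46 ± 0.10), Ccnb1, Ccna2, the cyclin of S and G2 phases, Cenpa, the centromeric histone, and Rrm2 (0.36 ± 0.089). In all, 39 of 40 members were positive in both ICB states, which held for 30.3% of all genes, and Rrm1 was the exception. The count was 24 without ICB replicate 3, 4 without PARPi replicate 1 or PARPi+ICB replicate 1, 5 without control replicate 2 or 3, PARPi replicate 3 or ICB replicate 2, 4 with the technical score as a covariate and 21 without the 4 libraries with acinar RNA. Beside both averages, T cell markers moved: 10 of 10 rose with ICB and 5 of 10 with PARPi. B and plasma cell genes did likewise, with 6 and 8 of 8 called higher, as did macrophage genes, with 5 and 2 of 8. For the averaged ICB effect the share of all genes called higher is not given here. The summed level of T cell genes was 144 to 229 CPM with PARPi+ICB+anti-VEGFA, 120.3 to 197 CPM in the PARPi+ICB group, 110.5 to 173 CPM in the PARPi+anti-VEGFA group, 90.3 to 112 with PARPi, 94.1 to 119.7 with ICB and 57.7 to 75.6 in controls. The part of these cell types in the result was not tested.

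Cdk1, Aurka, Pcna and E2f1 were called in no comparison with controls and are described here, a choice made after their values were seen. Cdk1, the kinase that mitotic cyclins activate, had 47.3, 53.5, 60.6 and 51.3 CPM with PARPi+anti-VEGFA, 30.02, 34.1 and 43.5 CPM with ICB and 41.6, 40.9 and 44.7 CPM in controls. Its PARPi+anti-VEGFA libraries were above all controls and its ICB libraries overlapped them. Aurka, a kinase of the spindle poles, had the widest spread of the members between animals, with a within-group SD of 0.269 log2, at 17.9, 22.4, 19.8 and 18.6 CPM with PARPi+anti-VEGFA, 8.802, 9.13 and 15.1 CPM with ICB and 15.2, 11.1 and 16.4 CPM in controls. Rrm1, called in both combinations with ICB, had the narrowest, at 0.0646 log2. Pcna had 156, 164, 166 and 175 CPM with PARPi+anti-VEGFA, 115, 129 and 152 CPM with ICB and 161, 145 and 143 CPM in controls, so that both treatments overlapped the controls. E2f1, which encodes one of the E2F factors, had log2 changes of 0.02 ± 0.094 with PARPi+ICB+anti-VEGFA, 0.02 ± 0.10 with PARPi+ICB, 0.05 ± 0.094 with PARPi+anti-VEGFA, 0.09 ± 0.10 with PARPi and -0.05 ± 0.10 with ICB.

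S-phase and mitotic genes were set side by side in each library as the difference of their mean log2 CPM. It was 1.17 ± 0.081 with PARPi+ICB+anti-VEGFA, 1.12 ± 0.076 with PARPi+ICB, 1.02 ± 0.022 with PARPi+anti-VEGFA, 1.13 ± 0.062 with PARPi, 1.43 ± 0.11 with ICB and 1.29 ± 0.11 in controls (SD over animals). The 4 PARPi+anti-VEGFA libraries, at 1.00 to 1.05, lay below all 3 controls, at 1.16 to 1.36. ICB libraries, at 1.31 to 1.53, overlapped them. The difference between classes was not tested. Both classes varied widely within a treatment. For PARPi+anti-VEGFA, log2 changes ran from 0.14 to 0.64 for the mitotic genes and from -0.15 to 0.47 for the S-phase genes.

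Other genes of the same processes were counted from lists written with earlier results of these data known. In the average over 3 ICB backgrounds, 30 of 44 other mitotic genes (68.2%), 11 of 38 other replication genes (28.9%) and 7 of 19 G1 cyclin, CDK and E2F genes (36.8%) fell and 0 of any rose, beside 6.88% of all genes called lower. With the technical score as a covariate the counts were 30, 17 and 5, and without the 4 libraries with acinar RNA 31, 13 and 3. Incenp, of the chromosomal passenger complex, changed by -0.20 ± 0.039, adjusted p 0.00336, and Ncaph, of condensin, by -0.34 ± 0.065, adjusted p 0.00364. Rfc4, of the clamp loader, changed by -0.33 ± 0.067, adjusted p 0.00432, and Tfdp1, the partner of the E2F factors, by -0.29 ± 0.044, adjusted p 0.000634. Among 12 inhibitors and checkpoint kinases, Cdkn2a, which blocks Cdk4 and Cdk6, rose by 0.63 ± 0.12, adjusted p 0.00288 and Cdkn2b by 0.38 ± 0.10, adjusted p 0.0195, while Chek2 and Wee1 fell. The share of all genes called higher in this average is not given here. Cdkn2a had log2 changes against controls of 0.82 ± 0.20 with PARPi+ICB+anti-VEGFA, 0.90 ± 0.21 with PARPi+ICB and 1.03 ± 0.21 with ICB, all called. They were 0.36 ± 0.20, adjusted p 0.242 with PARPi+anti-VEGFA and 0.50 ± 0.22, adjusted p 0.383 with PARPi, neither called. With the technical score as a covariate, 0 of the 12 inhibitors and checkpoint kinases were called higher with ICB, against 1 without it. The counts were 1 against 4 with PARPi+ICB and 2 against 3 with PARPi+ICB+anti-VEGFA. In the average over ICB backgrounds they were 1 against 2. Which genes kept a call is not given here. With PARPi+anti-VEGFA against controls, 15 of 44 other mitotic genes (34.1%) and 3 of 38 other replication genes (7.89%) rose and 0 fell, beside 9.99% of all genes called higher, so that the share of the replication genes was no larger than that of all genes. Without the 4 libraries with acinar RNA, 9 of the other mitotic genes (20.5%) and 1 of the other replication genes (2.63%) rose. With the technical score as a covariate 0 of either list were called, as for all genes. Without it, the genes called included Incenp at 0.39 ± 0.066, adjusted p 0.00113, Prc1, a bundler of midzone microtubules, at 0.54 ± 0.12, adjusted p 0.00454 and Pold1, the catalytic subunit of polymerase delta, at 0.57 ± 0.10, adjusted p 0.00120. Cdkn1a, an inhibitor of cyclin-dependent kinases, also rose there (0.57 ± 0.14, adjusted p 0.00991).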

How the data were processed

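RNA of 20 tumours, 1 per animal by the sample titles, was sequenced as stranded whole-transcriptome libraries. Per the submitters' processing notes, reads were aligned to GRCm38 with STAR and counted with HTSeq; versions, annotation release and strand setting are not given in the sources used here. The deposited table holds whole-number counts per Ensembl gene, not normalized. The second deposited table holds log2 of RPKM per coding sequence with 1 added, by the authors, and was proportional to the counts. Tests used the deposited counts in R 4.3.3 with edgeR 4.0.16 quasi-likelihood F tests, 1 coefficient per group, TMM scaling and filterByExpr (minimum count 10, total 15), which kept 18144 of 55406 genes. SE was the absolute log2 change over the square root of F and calls needed an adjusted p below 0.05. CPM used effective library sizes. Class means average log2 CPM computed at prior count 2. Symbols came from GENCODE M21 and promoters from RefSeq (GRCm38.p6). Alternatives used DESeq2 1.42.0 and limma 3.58.1 on the deposited log2 RPKM. Identifiers without a symbol held 0.0450 to 0.0571% of the counts. Members and lists were chosen with earlier results of these data known, and the 3 averaged effects were added after the data were seen. All 40 members could be named, and from each other list up to 4 genes with the smallest p. The edgeR procedure was tested on simulated data, with changes larger than any given here for a member.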

Additional observations from a re-analysis of the deposited data

Results flagged for a closer look

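Of 88 groups of 4 libraries examined, 3 held a library far from the other 3, where chance flags about 1 in 20 groups. Cdt1 was at 15.3 CPM in PARPi+ICB+anti-VEGFA replicate 3, and its other libraries were at 19.8 to 20.7 CPM. Mcm5 was at 49.9 CPM in the same library, and the others were at 66.3 to 69.1 CPM. That library was among the lowest 5 of 20 for 38 of 40 members. Rrm1 was at 331 CPM in PARPi+anti-VEGFA replicate 4, and the others were at 356 to 359 CPM. The cause was not tested.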

How the results depend on the processing

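Counts of called members moved with the method in several comparisons, and the cause was not tested. With DESeq2 the count was 1 for PARPi, 4 for ICB, 16 for PARPi+anti-VEGFA, 10 for PARPi added to ICB, 3 for ICB added to PARPi, 2 for ICB added to PARPi+anti-VEGFA and 19 for the averaged PARPi effect. Fits of the compared groups alone gave 2 for PARPi, 2 for PARPi+ICB, 22 for PARPi+anti-VEGFA, 1 for PARPi+ICB+anti-VEGFA and 0 for PARPi added to ICB. Without a filter on low counts PARPi+ICB gave 0 and PARPi added to ICB 2, and limma gave 0 for PARPi added to ICB. The technical score as a covariate gave 0 for PARPi+ICB, 0 for PARPi+anti-VEGFA and 4 for the averaged PARPi effect. Without the 4 libraries with acinar RNA the counts were 4 for ICB, 1 for PARPi+ICB+anti-VEGFA, 10 for PARPi added to ICB and 21 for the averaged PARPi effect. Replicate number as a block gave 1 for PARPi+ICB+anti-VEGFA, 0 for PARPi added to ICB and 25 for the averaged ICB effect; the labels state no pairing, and libraries of 1 number did not deviate together (median correlation 0.00883 over 46 pairs, against -0.00949 over 120 other pairs). Leaving out 1 library gave 0 to 6 for ICB, 0 to 2 for PARPi+ICB, 1 to 12 for PARPi+anti-VEGFA, 0 to 2 for PARPi+ICB+anti-VEGFA, 0 to 14 for PARPi added to ICB, 0 to 1 for ICB added to PARPi (1 without PARPi+ICB replicate 1), 4 to 24 for the averaged PARPi effect and 20 to 34 for the averaged ICB effect. No called member changed sign, and the median shift of all genes between scalings stayed under 0.1. Each member had at least 117 counts in each library, and what limits the number of calls was not tested.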
